A study of Mus musculus with 8 samples.

Results

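The mRNA level of 33 genes of the major histocompatibility complex (MHC) and of antigen presentation was examined in the hippocampus of 8 mice by polyA-RNA sequencing. The genes were chosen by name, for their place in the class I or class II pathway, with earlier results of these data known. All 33 were matched among the 40659 gene identifiers of the count table and passed the filter on low counts. Male C57BL/6JRj wild type mice received rAAVs, recombinant adeno-associated viruses, in the dorsal and ventral hippocampus at an age of 7 to 8 weeks. hp708, which carries a hairpin for overexpression of miR-708-5p, was given to 4 mice, and 4 received hpCTL, which carries a control hairpin. In both viruses the hairpin sits behind EGFP and is driven by the hSYN promoter, a promoter used to restrict expression to neurons, so that EGFP and the virus were common to both groups. Whole hippocampi were dissected 4 weeks after surgery, and the labels give the age as 12 to 13 weeks.

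MHC class I molecules are present on nearly all nucleated cells and show peptides of the cell's own proteins to CD8 T cells. The peptides are cut by the proteasome, which contains other catalytic subunits under interferon (the immunoproteasome), carried into the endoplasmic reticulum by the TAP transporter, and loaded onto a heavy chain bound to beta-2 microglobulin. MHC class II molecules show peptides of ingested proteins to CD4 T cells and are held by professional antigen-presenting cells, in the brain mainly microglia, border macrophages and dendritic cells. Class I genes are switched on by NLRC5 and IRF1 and class II genes by CIITA, and both sets are induced by interferon-γ. Neurons in the resting brain carry little MHC.

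Apart from Psme1 and Psme2, the antigen presentation genes varied more between mice of the same group (SD of log2 CPM) than the group means of hp708 and hpCTL differed. The level, in CPM (counts scaled to the normalized library size), spanned more than 2-fold over the 8 libraries for 24 of the 33 genes, more than 3-fold for 15 and more than 5-fold for 7, and the median span was 2.88-fold, against 1.47-fold over the 17252 tested genes. For 27 of the 33 genes the 3 lowest libraries were hpCTL replicate 1, hp708 replicate 1 and hp708 replicate 3, a combination that held for 6.03% of all tested genes. In the fit of the study's design, with 3 surrogate variables (estimated factors for unknown sources of variation), 32 of the 33 genes had a lower fitted level in hp708, at a median log2 fold change of -0.60 against -0.01 over all tested genes. The median was -0.31 when the surrogate variables were estimated from log2 CPM or from TMM-scaled counts (the latter chosen after seeing the data). None of the 33 passed a false discovery rate (FDR) of 0.05 in edgeR's quasi-likelihood test, where 1 gene of 17252 (0.0058%) did, and the lowest FDR among the members was 0.268, for Nlrc5. The methods of the study name edgeR's likelihood ratio test, and a legend names the quasi-likelihood test that was used here. With the same surrogate variables, the likelihood ratio test called 12 members at that FDR (0.736% of all tested genes) and DESeq2 called 7 (0.659%), and both called 0 without them. An unadjusted p below 0.05 with a lower level in hp708 was found for 24 members, and for 4.87% of all tested genes. Without surrogate variables 29 members lay below hpCTL (median log2 fold change -0.21), and only Psme1 had an unadjusted p below 0.05, against 0.951% of all tested genes that were lower at that p.

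The group difference with surrogate variables depended on 1 library. Animal 1602, which the sample labels name as hp708 replicate 1, is listed under hpCTL in source data of the study, and the label was followed here. Without this library, 22 of the 33 genes were lower in hp708, the median log2 fold change was -0.07, and 3 had an unadjusted p below 0.05 in the same quasi-likelihood fit with 3 surrogate variables, in which 12.2% of all genes had one. Log2 fold changes of single members then ranged from -0.26 for Nlrc5 to 0.39 for H2-DMb1, with a lowest FDR of 0.234 for Psme1. Leaving out hp708 replicate 4 instead left 28 members at an unadjusted p below 0.05, with 8.46% of all genes at that p. Only 6 members had an unadjusted p below 0.05 when genes with fewer than 10 counts in any library were left out before the surrogate variables were estimated, with a median of -0.21, and 5.72% of all genes in that fit had one. The precursor gene Mir708 had 0 counts in every library, and these polyA libraries hold no measure of the microRNA itself. Total counts were 22606824 to 28462428 per library, 3.49% to 4.07% of them mitochondrial, and the members had 47 to 23473 counts each in a library.

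**Figure D1:**
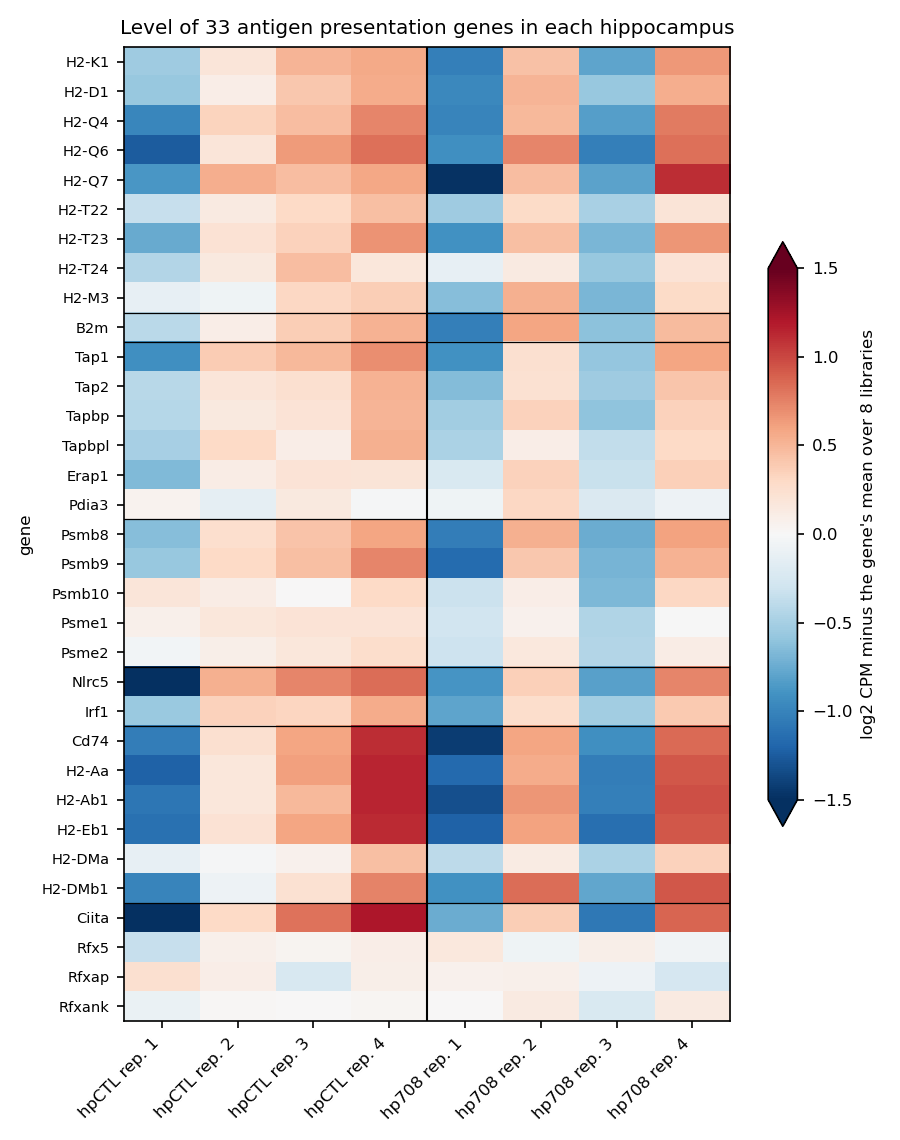
Log2 CPM of the 33 genes (rows, ordered by role, with lines between the roles) in the 8 hippocampi (columns, hpCTL left and hp708 right of the black line), as the difference from each gene's mean over the 8 libraries; values beyond 1.5 in either direction share the end colour. The columns of hpCTL replicate 1, hp708 replicate 1 and hp708 replicate 3 are blue for most genes, while Pdia3, Rfx5, Rfxap and Rfxank stay near white in every library.

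Per kilobase of exon, the class I light chain and the class II invariant chain had the highest median levels of the 33 transcripts. In TPM, a level per exon length that was computed from the counts, B2m had a median of 1146 over the 8 libraries and Cd74 of 979. They were followed by the classical class I heavy chains H2-D1 (median 649 TPM) and H2-K1 (489 TPM). The range of Cd74, from 287 to 1567 TPM, overlapped those of both heavy chains, and in hpCTL replicate 1 and hp708 replicate 1 Cd74 lay just below H2-D1. The class II chains H2-Eb1, H2-Ab1 and H2-Aa had medians of 241, 212 and 196 TPM, and Pdia3, a general oxidoreductase of the endoplasmic reticulum that also serves in the class I loading complex, had 222 TPM. From Pdia3 to H2-Aa and up to H2-Eb1 the ranges over the libraries overlapped, from 201 to 271 TPM for Pdia3 and from 81.2 to 387 TPM for H2-Eb1, so their order did not exceed the spread between mice. At the low end stood the class II activator Ciita with a median of 2.91 TPM, and the nonclassical heavy chain H2-T24 with 5.54 TPM.

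**Figure D2:**
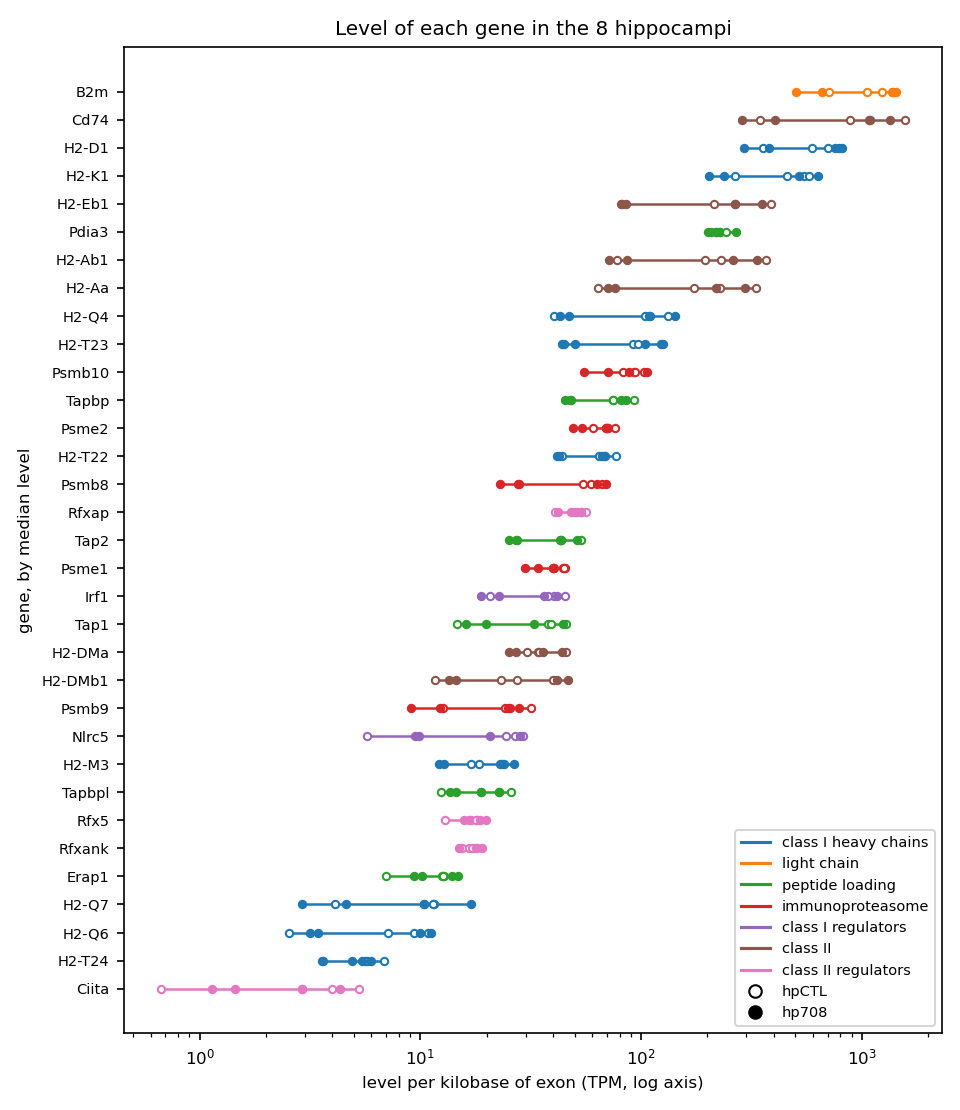
Level per kilobase of exon (TPM, log axis) of each gene in the 8 hippocampi, with genes ordered by their median, coloured by role, open circles for hpCTL, filled circles for hp708 and a line from the lowest to the highest library. B2m (1146 TPM) and Cd74 (979 TPM) have the highest medians, Ciita (2.91 TPM) is lowest, and the ranges of the open and filled circles overlap for each gene except Psme1.

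On chromosome 17 of GRCm39, between 34134873 and 37585384, lie 19 members, in the mouse H2 complex, and 14 lie elsewhere. Of the 9 class I heavy chains, H2-K1 and H2-D1 are the classical molecules of this strain that present peptides to CD8 T cells, and the Q, T and M genes encode nonclassical ones. H2-K1 (ENSMUSG00000061232, chr17:34214987-34219321, minus strand) had 192, 315, 394 and 411 CPM in hpCTL replicates 1 to 4 and 136, 377, 161 and 436 CPM in hp708 replicates 1 to 4. H2-D1 (ENSMUSG00000073411, chr17:35481691-35486475, plus strand) had 243, 385, 476 and 529 CPM in hpCTL and 184, 513, 242 and 525 CPM in hp708. For both genes hpCTL replicate 1 stood below its group and hp708 replicates 1 and 3 below theirs, so the groups overlapped over nearly their whole range. The mean of H2-K1 was 328 ± 99.8 CPM in hpCTL and 277 ± 151 CPM in hp708 (SD, n = 4 each), with a two-sided exact permutation p of 0.457. The log2 fold change with 3 surrogate variables was -0.73 (standard error 0.17) for H2-K1 and -0.60 (standard error 0.14) for H2-D1, and without them -0.24 (0.38) and -0.16 (0.35).

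Among the nonclassical heavy chains, H2-T23 encodes Qa-1, a ligand of inhibitory receptors on natural killer cells. It had 34.9, 68.6, 75.1 and 94.2 CPM in hpCTL and 31.6, 80.7, 36.7 and 93.6 CPM in hp708. H2-Q4 had 32.0, 79.2, 86.6 and 105 CPM in hpCTL and 31.6, 88.0, 35.3 and 108 CPM in hp708. In both genes hpCTL replicate 1 was about as low as hp708 replicate 1. H2-Q6 (1.96, 5.29, 7.26 and 8.30 CPM in hpCTL, and 2.46, 7.74, 2.30 and 8.26 CPM in hp708) and H2-Q7 (3.96, 10.6, 10.05 and 10.9 CPM in hpCTL, and 2.61, 10.04, 4.18 and 15.7 CPM in hp708) encode Qa-2, and were far below H2-K1 in every library. H2-T22, a ligand of some gamma-delta T cells, had 34.1, 47.7, 53.4 and 59.1 CPM in hpCTL and 29.98, 52.6, 30.9 and 49.5 CPM in hp708. H2-M3, which presents formylated peptides, had 7.00, 7.26, 9.43 and 9.80 CPM in hpCTL and 4.89, 10.96, 4.73 and 9.29 CPM in hp708. H2-T24 spanned only 3.71 to 7.59 CPM. All 9 heavy chains had their 3 lowest values in hpCTL replicate 1 and hp708 replicates 1 and 3, against 6.03% of all tested genes. With 3 surrogate variables all 9 were lower in hp708 (median log2 fold change -0.60), against 9176 of the 17252 tested genes. In edgeR's quasi-likelihood test 8 of the heavy chains, all but H2-T24 (FDR 0.712), had an unadjusted p below 0.05. At that p 4.87% of all tested genes were lower. Without surrogate variables the median was -0.17 and none of the heavy chains had such a p, where 0.951% of all tested genes were lower. H2 genes are close copies of each other: of all 75-base stretches of the main transcript, 27.5% in H2-Q7, 25.7% in H2-T22, 18.3% in H2-Q6 and 14.6% in H2-T23 also occur in another gene, but only 6.9% in H2-D1 and 1.6% in H2-K1, so reads of the first 4 could be split between genes.

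B2m (ENSMUSG00000060802, chr2:121977957-121983594, plus strand) encodes beta-2 microglobulin, the light chain that every class I heavy chain needs to reach the surface, and lies outside the H2 complex. It had 341, 484, 586 and 647 CPM in hpCTL and 223, 681, 295 and 629.8 CPM in hp708. The means were 514 ± 134 and 457 ± 232 CPM (SD, n = 4 each), a difference within the spread of either group, with an exact permutation p of 0.543. With surrogate variables B2m differed by -0.64 on the log2 scale (standard error 0.14, FDR 0.382), and by -0.17 (standard error 0.35) without them, both from edgeR's quasi-likelihood test. B2m kept a nearly fixed proportion to its partners on another chromosome. Per kilobase, B2m relative to the sum of H2-K1 and H2-D1 came to 1.14, 1.01, 0.983 and 1.01 in the hpCTL mice and to 1.02, 1.12, 1.07 and 0.957 in hp708, a span of 1.195-fold, although each of the 3 genes spanned 2.88-fold to 3.20-fold.

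The start sites of these genes were searched for the short motifs through which class I genes are known to be induced. The letters GGGATTCCC, an NF-κB site read on both strands, occurred in the window from 250 bases before to 50 bases after the start of 4 of the 33 genes (H2-K1, H2-Q6, H2-Q7 and Irf1) and in 0.39% of the 14977 windows of tested genes. The matches of the 3 heavy chains are shown because their surroundings are nearly the same, with the motif in capitals, 5′ to 3′ along the gene, in GRCm39.
H2-K1, chr17:34219412-34219441: cccagggctgGGGATTCCCcatctccacag
H2-Q6, chr17:35643644-35643673: cccatggctgGGGATTCCCcatctccccag
H2-Q7, chr17:35657989-35658018: cccatggctgGGGATTCCCatctccccagt
The core of the interferon-stimulated response element occurred in 3 members (H2-T22, H2-T23 and Nlrc5) and in 3.68% of all windows. A match is a description of the letters and was not tested for binding.

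Peptide loading genes followed the heavy chains in part. TAP1 and TAP2 form the peptide transporter, and tapasin (Tapbp) holds it next to the empty class I molecule. Tap1 had 20.03, 49.4, 53.1 and 61.4 CPM in hpCTL and 20.3, 44.7, 25.4 and 57.4 CPM in hp708. Tap2 had 29.7, 44.99, 46.8 and 57.0 CPM in hpCTL and 25.2, 46.6, 27.4 and 52.8 CPM in hp708. Both were lowest in hpCTL replicate 1 and hp708 replicates 1 and 3, and Tap1 spanned 3.07-fold against 2.26-fold for Tap2, so Tap1 per Tap2 ranged from 0.535 in hpCTL replicate 1 to 0.901 in hpCTL replicate 3 per kilobase. Tapbp had 47.8, 71.4, 74.3 and 91.4 CPM in hpCTL and 44.6, 81.3, 42.3 and 81.3 CPM in hp708. Tapbpl, the tapasin-related peptide editor, had 9.07, 15.7, 13.7 and 18.4 CPM in hpCTL and 9.21, 13.7, 9.89 and 15.7 CPM in hp708. Erap1, which trims peptides in the endoplasmic reticulum, ranged from 12.8 to 25.9 CPM. Pdia3 had 243, 212, 258 and 230.3 CPM in hpCTL and 223, 289, 201 and 222 CPM in hp708, with its lowest value in hp708 replicate 3, while hpCTL replicate 1 and hp708 replicate 1 lay within the range of the others. With 3 surrogate variables the median log2 fold change of the 6 genes was -0.43, from -0.68 (standard error 0.12) for Tap1 to -0.08 (standard error 0.08) for Pdia3. In edgeR's quasi-likelihood test 4 of the 6 were lower at an unadjusted p below 0.05, against 4.87% of all tested genes. Erap1 changed direction between the fits, with -0.12 (standard error 0.08) with surrogate variables and 0.06 (standard error 0.22) without.

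Immunoproteasome subunits varied between mice while the constitutive subunits they replace did not vary in the same way. Psmb8, Psmb9 and Psmb10 encode the inducible catalytic subunits that take the places of those of Psmb5, Psmb6 and Psmb7. Psmb8 had 21.7, 40.4, 45.6 and 50.8 CPM in hpCTL and 16.5, 48.8, 20.2 and 51.5 CPM in hp708. Psmb9 had 10.9, 19.9, 21.99 and 26.8 CPM in hpCTL and 7.25, 21.4, 9.97 and 23.1 CPM in hp708. Psmb10 had 36.7, 35.1, 32.4 and 39.9 CPM in hpCTL and 25.8, 34.7, 20.4 and 40.1 CPM in hp708. Psmb8 and Psmb9 were lowest in the 3 libraries named above, whereas Psmb10 was low in hp708 replicates 1 and 3 only. The constitutive Psmb5 had 75.4, 53.3, 50.8 and 50.5 CPM in hpCTL and 49.4 to 58.3 CPM in hp708. Psmb6 reached 104 CPM and Psmb7 110 CPM in hpCTL replicate 1, and in the other libraries they stayed between 70.8 and 80.4 CPM and between 79.9 and 85.6 CPM, so this library was low for Psmb8 and Psmb9 and high for the constitutive subunits. Psmb8 per Psmb5, per kilobase, came to 0.152, 0.398, 0.471 and 0.529 in the hpCTL mice and to 0.176, 0.479, 0.208 and 0.464 in hp708. Psmb9 per Psmb6 ranged from 0.0579 to 0.214, and Psmb10 per Psmb7 from 0.881 to 1.68.

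Psme1 was the only member whose groups did not overlap. It encodes PA28 alpha, which with the product of Psme2 forms a cap that opens the proteasome and favours class I peptides. Psme1 (ENSMUSG00000022216, chr14:55815190-55822034, plus strand) had 50.8, 54.1, 55.5 and 55.6 CPM in hpCTL and 39.5, 50.3, 35.2 and 47.9 CPM in hp708. The highest hp708 library lay just under the lowest hpCTL library, and hp708 replicates 1 and 3 were again the lowest of their group. Means were 54.0 ± 2.23 and 43.2 ± 7.07 CPM (SD, n = 4 each), with a two-sided exact permutation p of 0.0286, the smallest that the 70 splits of 8 libraries allow. Of all tested genes, 0.812% had all hp708 libraries below all hpCTL libraries. Groups did not overlap, in either direction, for 261 of the 17252 tested genes. Psme1 differed by -0.41 on the log2 scale with surrogate variables (standard error 0.07, FDR 0.294) and by -0.32 without them (standard error 0.11, FDR 0.999) in edgeR's quasi-likelihood test, so it did not pass the adjustment over all genes. Without hp708 replicate 1 the groups still did not overlap and the log2 fold change was -0.25 with surrogate variables. Psme2 had 32.5, 35.5, 37.7 and 40.4 CPM in hpCTL and 27.0, 37.3, 24.8 and 36.3 CPM in hp708, which overlapped, with a log2 fold change of -0.35 (standard error 0.09) and of -0.22 (standard error 0.14) without surrogate variables. Per kilobase of exon, Psme1 per Psme2 stayed between 0.566 and 0.670.

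Psme1 also holds matches to the seed of the overexpressed microRNA, which are shown for that reason. The mature sequence, as given by RefSeq, has its seed, bases 2 to 8, in capitals.
miR-708-5p: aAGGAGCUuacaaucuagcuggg
The reverse complement of these 7 bases, AGCTCCT, was found 2 times in the 3′UTR of Psme1, 2174 and 3097 bases after the stop codon, in 13 of its 15 protein-coding transcripts.
Psme1, chr14:55821001-55821019: gccatctctccAGCTCCTg
Psme1, chr14:55821924-55821942: tcccccactgcAGCTCCTt
A canonical site (8mer, 7mer-m8 or 7mer-A1) was present in the longest 3′UTR of 6 of the 33 members, H2-D1, H2-Q7, Erap1, Psme1, Rfx5 and Rfxank, each as a 7mer-m8, and in 26.5% of the 14808 tested genes with a 3′UTR. Of these 6, only Psme1 had groups that did not overlap, H2-D1 and H2-Q7 had an unadjusted p below 0.05 with surrogate variables only, and Rfx5, Rfxank and Erap1 had none in either fit of edgeR's quasi-likelihood test. The exons of Psme1 share 2192 bases, 39.6% of their length, with those of Emc9 on the opposite strand, and without a stated strand setting of the counting the reads of both cannot be told apart there. Emc9 had 19.96, 17.97, 19.1 and 21.7 CPM in hpCTL and 18.9, 16.9, 17.2 and 18.6 CPM in hp708, which overlapped. Psme2 shares 51.6% of its 75-base stretches with Psme2b and 30.8% of its exon bases with Rnf31, and Psmb9 shares 743 bases with Tap1.

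**Figure D3:**
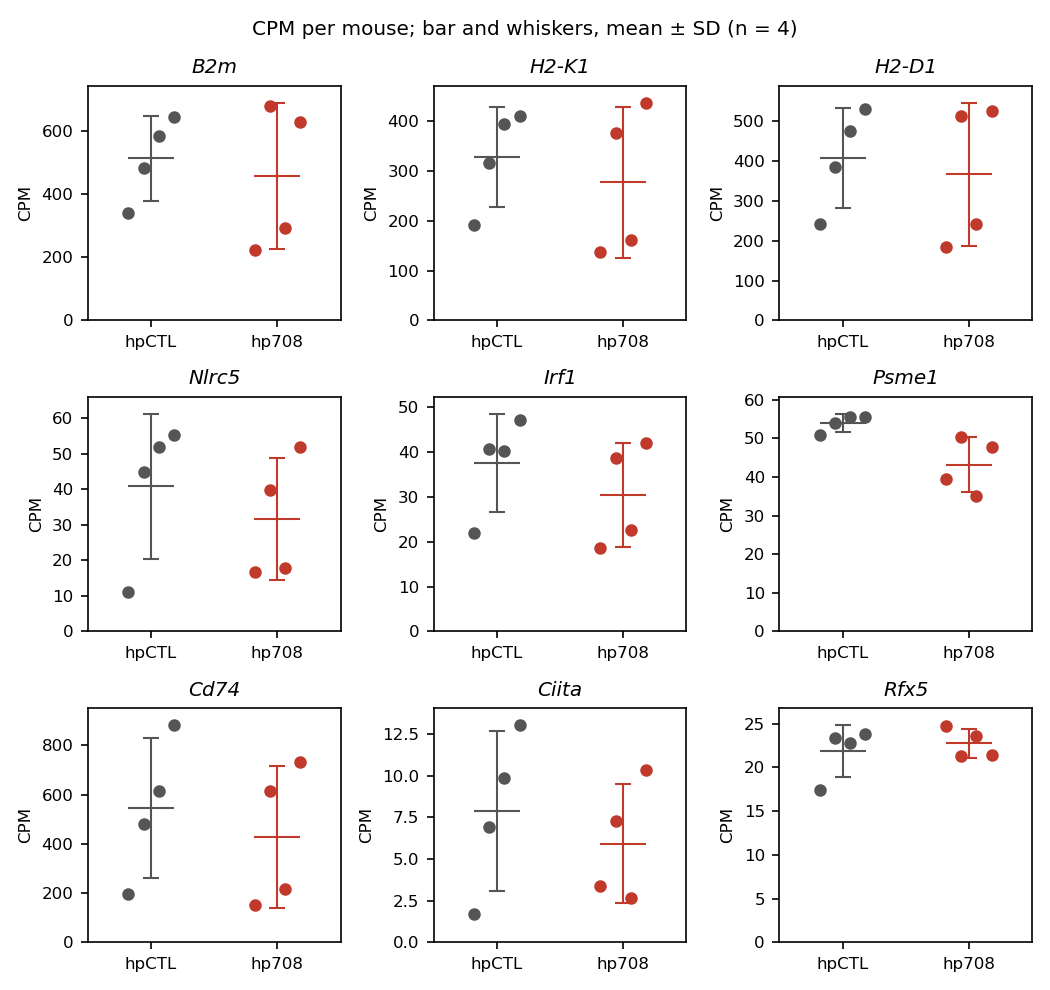
CPM of 9 antigen presentation genes in each mouse (points, hpCTL grey and hp708 red, replicates 1 to 4 from left to right), with the mean as a horizontal bar and whiskers of 1 SD (n = 4). For B2m, H2-K1, H2-D1, Nlrc5, Irf1, Cd74 and Ciita hpCTL replicate 1 and hp708 replicates 1 and 3 lie low, Psme1 is the only gene whose groups do not overlap, and Rfx5 has its lowest value in hpCTL replicate 1 alone.

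The regulators of class I varied between mice together with the class I genes. NLRC5 is the transactivator that drives class I heavy chains, B2m, Tap1 and Psmb9, and IRF1 is an interferon-induced factor that acts on many of the same promoters. Nlrc5 (ENSMUSG00000074151, chr8:95160984-95253900, plus strand) had 11.1, 44.99, 51.8 and 55.4 CPM in hpCTL and 16.9, 39.7, 17.7 and 51.9 CPM in hp708. Irf1 (ENSMUSG00000018899, chr11:53660812-53669200, plus strand) had 21.9, 40.8, 40.2 and 47.2 CPM in hpCTL and 18.6, 38.7, 22.5 and 42.1 CPM in hp708. In both genes the same 3 libraries lay well below every other library. The spans of 5.01-fold for Nlrc5 and 2.54-fold for Irf1 covered both groups, and the exact permutation p was 0.800 for Nlrc5 and 0.343 for Irf1. With surrogate variables Nlrc5 had the lowest FDR of the 33 members in edgeR's quasi-likelihood test, 0.268, at -0.76 on the log2 scale (standard error 0.11), and Irf1 had an FDR of 0.294 at -0.61 (standard error 0.11). Without them the values were -0.37 (standard error 0.49) and -0.30 (standard error 0.29), and without hp708 replicate 1 they were -0.26 and -0.18 with surrogate variables. Nlrc5 holds the response element core of interferon-stimulated genes, in the orientation opposite to the gene, shown here in capitals.
Nlrc5, chr8:95161011-95161040: cagtggccacTTTCAGTTTCcacagagcgc

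Class II genes spanned 5.07-fold between mice at the median, against 2.98-fold for the class I heavy chains, with H2-Q7 (6.03-fold) above and H2-DMa far below. CD74, the invariant chain, escorts class II molecules and fills their groove until a peptide replaces it. Cd74 (ENSMUSG00000024610, chr18:60936899-60945731, plus strand) had 198, 481, 616 and 881 CPM in hpCTL and 152, 613, 215 and 733 CPM in hp708. H2-Aa and H2-Ab1 encode the chains of I-A, the class II molecule of this strain. H2-Aa had 62.0, 162, 221 and 318 CPM in hpCTL and 64.0, 212, 69.9 and 275 CPM in hp708. H2-Ab1 had 45.2, 108, 134 and 211 CPM in hpCTL and 38.5, 152, 47.0 and 187 CPM in hp708. H2-Eb1, the beta chain of I-E, had 47.8, 121, 157 and 225 CPM in hpCTL and 44.9, 158, 47.4 and 198 CPM in hp708. In all 4 genes hpCTL replicate 4 was highest, hpCTL replicate 1 and hp708 replicates 1 and 3 were lowest, and the other 2 hpCTL libraries lay between. H2-Ea, the gene of the I-E alpha chain, which is not transcribed in mice of the b haplotype such as C57BL/6, had 0 counts in every library, which allows a level of up to 0.105 to 0.133 CPM (3 counts per library, counting error only).

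The 4 genes kept nearly fixed proportions over spans of 5.01-fold to 5.81-fold. Cd74 per H2-Ab1, per kilobase, came to 4.48, 4.56, 4.71 and 4.28 in the hpCTL mice and to 4.03, 4.13, 4.68 and 4.00 in hp708. H2-Aa per H2-Ab1 ranged from 0.820 to 0.995 and H2-Eb1 per H2-Ab1 from 0.999 to 1.16 over the 8 libraries. H2-DMa and H2-DMb1, whose product exchanges the invariant chain fragment for peptide, differed from them and from each other. H2-DMa spanned 1.89-fold, from 23.4 to 44.1 CPM, and H2-DMb1 spanned 3.81-fold, from 4.46 to 17.02 CPM, with 19.1% of its 75-base stretches shared with H2-DMb2. With surrogate variables all 6 class II genes were lower in hp708 (median log2 fold change -0.90), and none was below an FDR of 0.450. In edgeR's quasi-likelihood test 4 of the 6 had an unadjusted p below 0.05, where 4.87% of all tested genes were lower. Without surrogate variables 0 of them had such a p, where 0.951% of all tested genes were lower. Cd74 had the lowest log2 fold change of the 33 members, -1.01 (standard error 0.25), against -0.35 (standard error 0.54) without surrogate variables and -0.09 without hp708 replicate 1. H2-DMb1 turned from -0.41 (standard error 0.26) with surrogate variables to 0.16 (standard error 0.48) without.

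Class II promoters are known for a conserved block that ends in a Y box, bound by NF-Y. The letters CTGATTGG, read on both strands, occurred in 7 members (H2-K1, H2-Q6, H2-Q7, Tap1, H2-Aa, H2-Ab1 and H2-Eb1) and in 5.28% of all windows, and each match also holds the CCAAT box read on the other strand, which 21 members and 38.75% of all windows have. The windows of H2-Aa, H2-Ab1 and H2-Eb1, the chains of the class II molecules, are shown with the Y box in capitals, and Cd74, which varied with them, holds no match.
H2-Aa, chr17:34506830-34506859: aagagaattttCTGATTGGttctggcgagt
H2-Ab1, chr17:34482142-34482171: cagctccaatgCTGATTGGttcctcacttg
H2-Eb1, chr17:34524768-34524797: ctcctttgatgCTGATTGGctcccagcact

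Of the class II regulators, only the inducible one varied more between mice than the median tested gene. CIITA is the master activator of class II, which is made on demand, whereas RFX5, RFXAP and RFXANK form the constitutive RFX complex on which CIITA acts. Ciita (ENSMUSG00000022504, chr16:10297923-10347694, plus strand) had 1.68, 6.95, 9.89 and 13.0 CPM in hpCTL and 3.37, 7.30, 2.69 and 10.3 CPM in hp708, a span of 7.77-fold, the widest of the 33 genes. Rfxap, the most abundant of the 4 per kilobase, had 29.1, 26.3, 20.9 and 26.2 CPM in hpCTL and 25.7, 26, 23.3 and 20.7 CPM in hp708. Rfx5 ranged from 17.4 to 24.7 CPM and Rfxank from 14.3 to 18.4 CPM, and the spans of the RFX genes were 1.29-fold to 1.42-fold, below the median over all tested genes. Ciita was low in the same 3 libraries as the class II genes and none of the RFX genes was low in all 3. Fold changes with surrogate variables (log2) were -0.77 for Ciita (standard error 0.23, FDR 0.529) and -0.05 to 0.07 for the RFX genes, by edgeR's quasi-likelihood test.

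**Figure D4:**
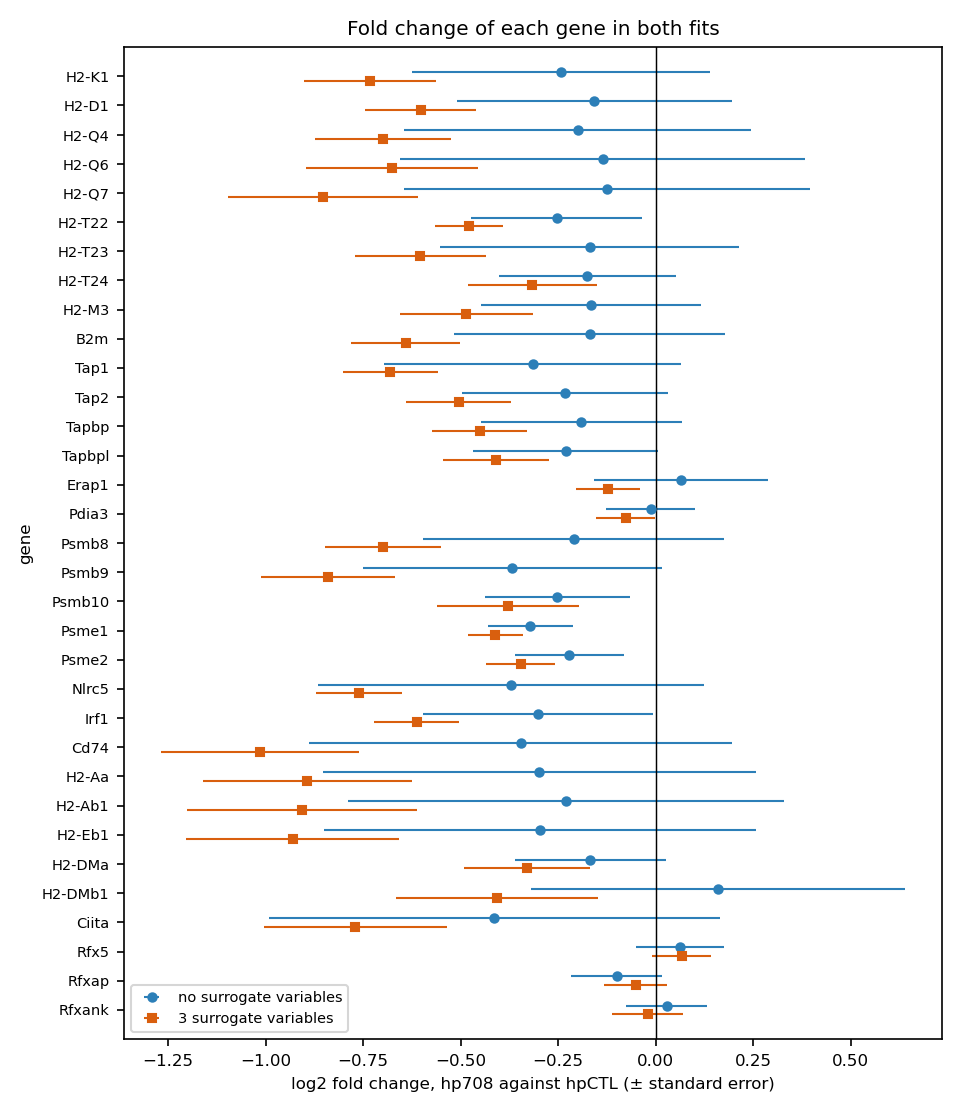
Log2 fold change of hp708 against hpCTL for each of the 33 genes, with bars of 1 standard error, from edgeR's quasi-likelihood fit with 3 surrogate variables (orange squares) and without (blue circles). The squares lie to the left of 0 for 32 genes with a median of -0.60, the circles for 29 with a median of -0.21, and the bars of the circles are wider for most genes.

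Other genes of the pathway, from a list of 53 of which 47 passed the filter, were lower in hp708 at an unadjusted p below 0.05 in 11 cases and higher in none, with 3 surrogate variables (4.87% of all tested genes were lower at that p), and in 0 cases without (0.951%). They included Stat2, Irf8, Irf9 and the feedback inhibitor Socs1 of interferon signalling, 3 genes of the class II route (H2-Oa, the peptide-releasing protease Ctss and the thiol reductase Ifi30), the class I gene H2-K2, the proteasome assembly factor Pomp and the NF-Y subunit Nfya, and none of the list passed an FDR of 0.05. Ifng, the gene of interferon-γ, was scarce, with 0.107, 0.262, 0.410 and 0.451 CPM in hpCTL and 0.362, 0.609, 0.128 and 0.578 CPM in hp708, so that hpCTL replicate 1 and hp708 replicate 3 were at the level of 3 counts. The class I chaperones and general trimming enzymes (Calr, Canx, Hspa5, Ero1a, Lnpep and Npepps) had a median of -0.02 in log2 fold change, with 0 of 6 at an unadjusted p below 0.05.

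Many markers of several cell types moved with the antigen presentation genes across the 8 mice. In bulk tissue, fewer cells of a type and less RNA per cell cannot be told apart. The summed level of the 6 class II genes was 388, 912, 1172 and 1694 CPM in hpCTL and 329, 1186, 408 and 1451 CPM in hp708. The summed level of 10 microglia markers was 810, 933, 1099 and 1068 CPM in hpCTL and 656, 1053, 741 and 1160 CPM in hp708, lowest in the same 3 libraries but with a span of 1.77-fold against 5.16-fold for class II. Class II per microglia marker level therefore still ranged from 0.479 to 1.59, a span of 3.315-fold, whereas the same ratio spanned 1.77-fold for the class I heavy chains, 1.90-fold for B2m and 1.34-fold for the immunoproteasome genes. With surrogate variables 7 of the 10 microglia markers were lower in hp708 at an unadjusted p below 0.05 in edgeR's quasi-likelihood test. At that p 4.87% of all tested genes were lower, and without surrogate variables 0 of the 10 markers and 0.951% of all tested genes. The 3 lowest libraries were the same for 8 of the 10, against 6.03% of all tested genes. P2ry12, at 34.7 to 39.4 CPM, spanned only 1.14-fold and was highest in hp708 replicate 3. Siglech was lowest in hp708 replicate 2, at 15.4 CPM. The 10 T cell markers summed to 25.8, 48.1, 71.0 and 46.4 CPM in hpCTL and 22.7, 51.6, 20.7 and 77.0 CPM in hp708. All 10 of them were lowest in the same 3 libraries, against 6.03% of all tested genes. In the quasi-likelihood test 6 were lower at an unadjusted p below 0.05 with surrogate variables (4.87% of all tested genes) and 0 without (0.951%). The 8 B and plasma cell markers summed to 2122 to 6050.0 CPM in hpCTL and 2062 to 5052 CPM in hp708, and the 8 monocyte and neutrophil markers to 10.4 to 31.2 CPM and 10.5 to 27.0 CPM. The sums of both lists were lowest in hpCTL replicate 1 and hp708 replicates 1 and 3. In the first list only 5 of the 8 genes had these 3 lowest libraries, against 6.03% of all tested genes. With surrogate variables 6 of the 8 were lower in hp708, and log2 fold changes ran from -0.78 to 0.24. In the second list Ly6c2, Ccr2 and Plac8 made up most of the sum, while the neutrophil genes S100a8, S100a9, Retnlg and Camp were near or at 0 and did not pass the filter on low counts, and Lcn2 was not lowest in those 3 libraries.

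Interferon-induced genes outside antigen presentation had the same 3 lowest libraries. The 10 interferon-γ GTPase genes (Gbp2 to Gbp7, Igtp, Irgm1, Irgm2 and Iigp1) summed to 209, 602, 628 and 793 CPM in hpCTL and 199, 640, 285.5 and 759.5 CPM in hp708. The 10 type I interferon response genes summed to 114, 244, 259 and 282 CPM in hpCTL and 106, 267, 130.4 and 249 CPM in hp708. All 20 genes of both lists were lowest in the same 3 libraries, which held for 6.03% of all tested genes. With surrogate variables all 20 were lower in hp708 at an unadjusted p below 0.05 in edgeR's quasi-likelihood test, against 4.87% of all tested genes. Without surrogate variables 0 of the 20 were, against 0.951%. Border macrophage (25.1 to 47.9 CPM), dendritic cell (22.4 to 36.2 CPM) and endothelium (239 to 301 CPM) markers spanned 1.91-fold, 1.61-fold and 1.26-fold in their sums, which did not share those 3 lowest libraries. Single genes of the first 2 lists did, chosen here after their values were seen, namely Ms4a7 (5.97-fold) of the border macrophage list and Xcr1, Clec9a and Itgax of the dendritic cell list, where the tested genes spanned 3.84-fold and 5.01-fold at the median. Astrocyte and hippocampal neuron markers spanned 1.22-fold and 1.35-fold in their sums, and all 8 of the neuron markers were detected, as fits the labelled tissue. Oligodendrocyte markers spanned 1.88-fold, from 4733 to 8920.1 CPM, lowest in hpCTL replicate 2 and hp708 replicates 1 and 3, with 0 of 8 at an unadjusted p below 0.05 in either fit of edgeR's quasi-likelihood test. Choroid plexus markers, a sign of dissected ventricle, ranged from 53.5 to 4442 CPM with another order of libraries, and the red blood cell markers from 66.2 to 134 CPM. No marker list held a gene at 0 in all libraries. The part of any of these cells in the spread of the antigen presentation genes was not tested.

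**Figure D5:**
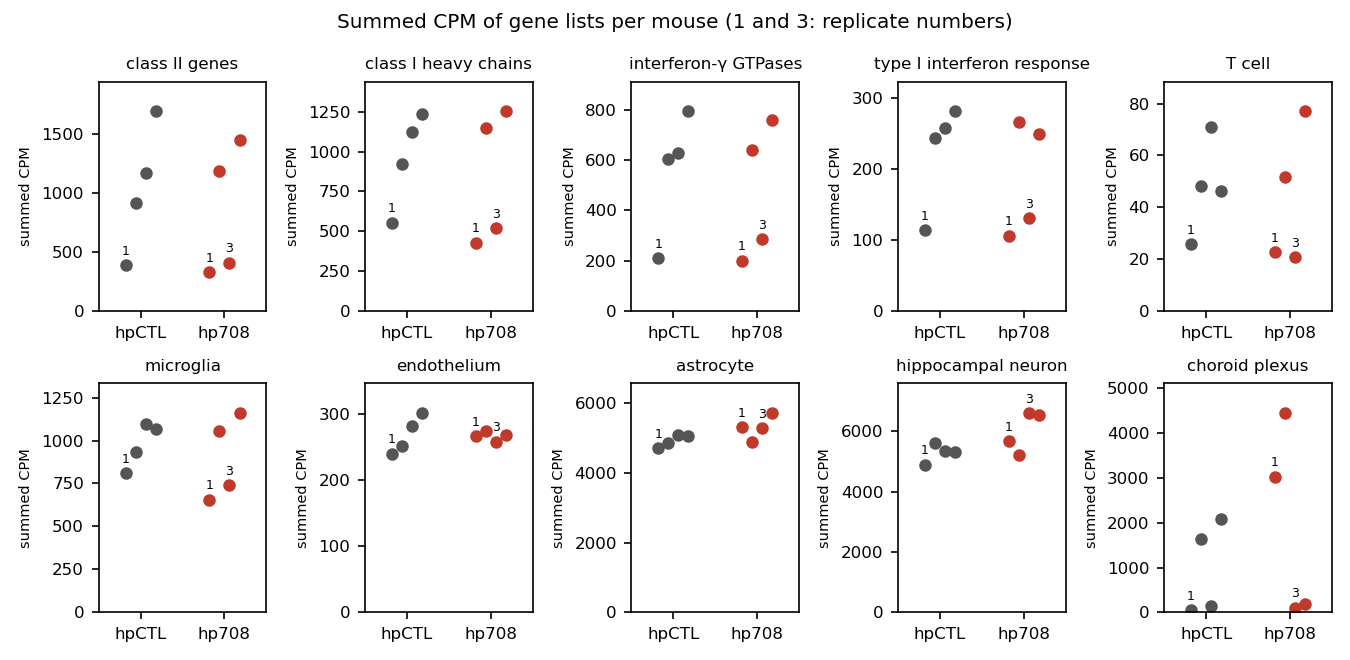
Summed CPM of the class II genes, the class I heavy chains and 8 lists of marker or response genes in each mouse (points, hpCTL grey and hp708 red; the numbers 1 and 3 mark hpCTL replicate 1 and hp708 replicates 1 and 3). These 3 libraries are lowest for class II (329 to 408 CPM), class I, both interferon lists, T cell and microglia markers, and not for endothelium, astrocyte, neuron or choroid plexus markers.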

How the data were processed

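Reads of whole hippocampi (4 hpCTL and 4 hp708 mice, polyA libraries) were mapped by the authors to GRCm39 with STAR 2.7.8a and GENCODE M26 and counted per gene with featureCounts 1.6.4. They deposited raw counts, without normalization. Strand and multi-mapping settings are not given in the sources used here. All 8 columns were matched to samples by animal number. Of 40659 identifiers 39637 were named from GENCODE M39.

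From the counts, 17252 genes passed filterByExpr. They were tested in R 4.3.3 by edgeR 4.0.16 (quasi-likelihood as in edgeR 3, TMM, 3 surrogate variables from svaseq, sva 3.50.0, Benjamini-Hochberg adjustment over all tested genes). Standard errors came from the fold change and the statistic. The same fit without surrogate variables is given beside it. DESeq2 1.42.0 and the likelihood ratio test were alternatives. Single genes were compared by two-sided exact permutation of log2 CPM (prior count 2). The functions were tested on simulated data. No library was a copy of another: the chi-square per degree of freedom between libraries of a group was 10.0 to 46.2 over genes with at least 20 counts in the pair. Total counts of 22606824 to 28462428 set the depth. Each mouse is 1 library, so p-values measure the spread between mice.

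Members and lists were chosen with earlier results of these data known. Named were all members, B2m, H2-K1, H2-D1, Cd74, Nlrc5, Irf1, Ciita, the most abundant of each role and those with an unadjusted p below 0.05 with values in every library, and companion genes at that p. H2-Bl was not matched. One gene of the pathway list is not reported here. Promoters and 3′UTRs came from GRCm39 with GENCODE M39.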

Additional observations from a re-analysis of the deposited data

Results flagged for a closer look

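In 124 groups of 4 libraries (each member, each list sum and the total count, in each group), 1 library stood far from the other 3 in 4 cases, where chance gives about 1 in 20, or 6.2. All 4 cases were hpCTL replicate 1. H2-Q7 was at 3.96 CPM there against 10.05 to 10.9 CPM in the other hpCTL mice, and Erap1 was at 12.8 CPM against 21.9 to 23.4 CPM. Rfx5 was at 17.4 CPM against 22.8 to 23.8 CPM, although it was not low in hp708 replicates 1 and 3. The summed level of 6 constitutive proteasome genes was high, at 545 CPM against 432 to 441 CPM.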

How the results depend on the processing

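The members' lower level in hp708 kept its direction on balance under all 14 alternatives (29 to 32 of 33 genes lower, median log2 fold change -0.60 to -0.20), while the calls did not. At an FDR below 0.05, over all tested genes, 1 gene was called by the quasi-likelihood test with 3 surrogate variables, 0 with none, 1 or 2 of them, with 3 from log2 CPM, with svaseq on TMM-scaled counts (chosen after seeing the data) or under a minimum of 10 counts in every library, 127 by the likelihood ratio test, 96 by DESeq2, 2 by either without surrogate variables, 3 by the edgeR 4 quasi-likelihood and 12 without a filter. Of the members, the likelihood ratio test called 12 (H2-K1, H2-D1, H2-Q4, H2-T22, B2m, Tap1, Psmb8, Psmb9, Psme1, Nlrc5, Irf1 and Cd74) and DESeq2 7 (H2-T22, Tap1, Psmb8, Psmb9, Psme1, Nlrc5 and Irf1), the other settings 0. The count of members at an unadjusted p below 0.05, 24 in the reported fit, was 1 without surrogate variables in each of the 3 tests and 6 with at least 10 counts in every library. Why these settings differ was not tested.

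Replicate numbers did not pair the mice (correlations of same-numbered deviations from -0.041 to 0.018, none of the 4 libraries best matched by its own number). With the replicate block and no surrogate variables 2 members and 1.58% of all tested genes had an unadjusted p below 0.05, and Erap1, H2-DMb1 and Rfxank were at 0.0724, 0.0577 and 0.0217.

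Erap1, H2-DMb1 and Rfxank changed direction elsewhere too. They were at 0.0648, 0.1599 and 0.0276 without surrogate variables, at 0.0647, 0.1608 and 0.0278 by the likelihood ratio test without them, at 0.071, 0.1674 and 0.0342 by DESeq2 without them, and at 0.0449, 0.2057 and 0.062 with at least 10 counts in every library, where Pdia3 was at 0.0533 and Rfx5 at -0.0293. Erap1 and Rfxank were at 0.0215 and 0.0123 with 1 surrogate variable, at 0.0295 and 0.007 with 3 from log2 CPM, and at 0.0264 and 0.0054 with svaseq on TMM-scaled counts.

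Leaving out 1 library, with and without surrogate variables (16 fits), gave 0 to 56 genes called, 1 to 28 members at an unadjusted p below 0.05, 20 to 32 lower, a median of -0.84 to -0.0333 and 1 to 2 members without overlap. The 56 genes and, with surrogate variables, the fewest members (3) came without hp708 replicate 1, and the 28 members without hp708 replicate 4, where 8.46% of all genes had such a p. Without surrogate variables the median was -0.05 without hpCTL replicate 4, -0.0333 without hp708 replicate 1 and -0.04 without hp708 replicate 3. Members that changed direction in some of these fits ranged from -0.86 to 0.07 (H2-D1), -1.07 to 0.0367 (H2-Q4), -1.09 to 0.11 (H2-Q6), -1.32 to 0.18 (H2-Q7), -0.91 to 0.0508 (H2-T23), -0.65 to 0.0355 (H2-M3), -0.88 to 0.0635 (B2m), -0.27 to 0.18 (Erap1), -0.14 to 0.0565 (Pdia3), -1.01 to 0.026 (Psmb8), -1.33 to 0.0654 (H2-Aa), -1.33 to 0.15 (H2-Ab1), -1.37 to 0.0476 (H2-Eb1), -0.76 to 0.46 (H2-DMb1), -0.0669 to 0.12 (Rfx5) and -0.0649 to 0.11 (Rfxank). Of 990 values of single members under these settings, 888 kept their direction and their side of the FDR of 0.05. With 4 mice a group, exact permutation cannot go below 0.0286, and Ciita, H2-Q6 and H2-T24 rest on the fewest counts.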
